A study of Mus musculus with 6 samples.

Results

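Smooth muscle-like cells of the injured mouse cortex were compared between 2 lines of mice in which different Cre drivers had labelled the mural cells. The comparison took the cells of cluster 1 from the Tbx18 line and of cluster 3 from the NG2 line, both 3 days after a saline injection into the cortex, which is called physical injury here. There were 827 such cells among the 3845 cells of the Tbx18 library and 242 among the 2563 cells of the NG2 library, or 1069 of the 17033 cells of all 6 libraries. Their unique molecular identifiers (UMIs, each standing for 1 captured transcript) were summed over the cells of a line and set against the line's own total, which gives CPM (counts per 1e6 UMIs). The sums were 8629183 UMIs in the Tbx18 line and 2428235 UMIs in the NG2 line, and 20347 genes stood in both tables.

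The Tbx18 line was Tbx18-CreERT2/Ai14-flx, with Cre placed into the Tbx18 gene itself, and the NG2 line was NG2-CreERT2/Ai14-flx, with Cre on a transgene of Cspg4, the gene of NG2. In both lines tamoxifen, given 7 days before the injury, let Cre switch on the red reporter tdTomato (tdT) of the Ai14 allele for good in cells that used the driver at that time and in their progeny. The mice were 3 to 4 months old and of both sexes. Cortices of several animals were pooled, live tdT+/DAPI- cells were sorted, and 1 library was made per line and condition with 10x Genomics 3' chemistry. The other conditions, naive and ischemic injury by ET-1/L-NAME, are used below only where they show how the physically injured cells stand. With 1 pooled library on each side there is no replicate, no test was made, and line, library, sort and pool of animals cannot be told apart. Values carry 95% limits that cover counting error only (exact Poisson for CPM, exact Clopper-Pearson for shares of cells).

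Smooth muscle cells wrap arteries, arterioles and larger veins and set the vessel's width through actin and smooth muscle myosin. Pericytes sit further down on capillaries, where contractile genes fade and genes such as Vtn, Kcnj8, Abcc9 and Atp13a5 appear. The change along the vessel is gradual, so a cluster of mural cells can reach from arterial muscle to cells that share genes with pericytes. Muscle cells can also lower their contractile genes and raise matrix and growth genes after damage, which is known as phenotypic switching.

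The smooth muscle label held against its markers in both lines. Among the 10 genes that stood out most over the rest of the library were 3 of the 10 smooth muscle markers in the Tbx18 line (Pln, Myh11 and Mustn1) and 5 in the NG2 line (Pln, Tagln, Cnn1, Myh11 and Acta2), and none of another cell type's markers. At least 1% of the UMIs came from the smooth muscle markers in 99.9% of the Tbx18 cells (limits 99.3% to 100%, 826 of 827) and in 94.2% of the NG2 cells (90.5% to 96.8%, 228 of 242). The median depth was 10561 UMIs per cell (1263 to 19869) in the Tbx18 line and 10167 (516 to 33179) in the NG2 line. No cell barcode was shared by the 2 sets.

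The summed profiles were close. Across the 6192 genes with a mean of at least 20 CPM, Pearson's r of log2(CPM + 1) was 0.978, a description across genes of 2 libraries, and 5974 genes lay within 1.5-fold. Ratios are given as log2 of the Tbx18 over the NG2 level with 1 CPM added to each, and the median ratio was -0.02. A gene was called at a 2-fold difference: 10 genes (0.161%) were higher in the Tbx18 line and 44 (0.711%) in the NG2 line. The genes nearest the line on the NG2 side were Higd1b at -1.02 and Lasp1 at -1.004, just inside, and Pex5l and Colec12 at -0.99, just outside. On the Tbx18 side Mzt2 at 1.05 was just inside, and Magi3 and Rpl35, both at 1.00 after rounding, were just outside.

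**Figure D1:**
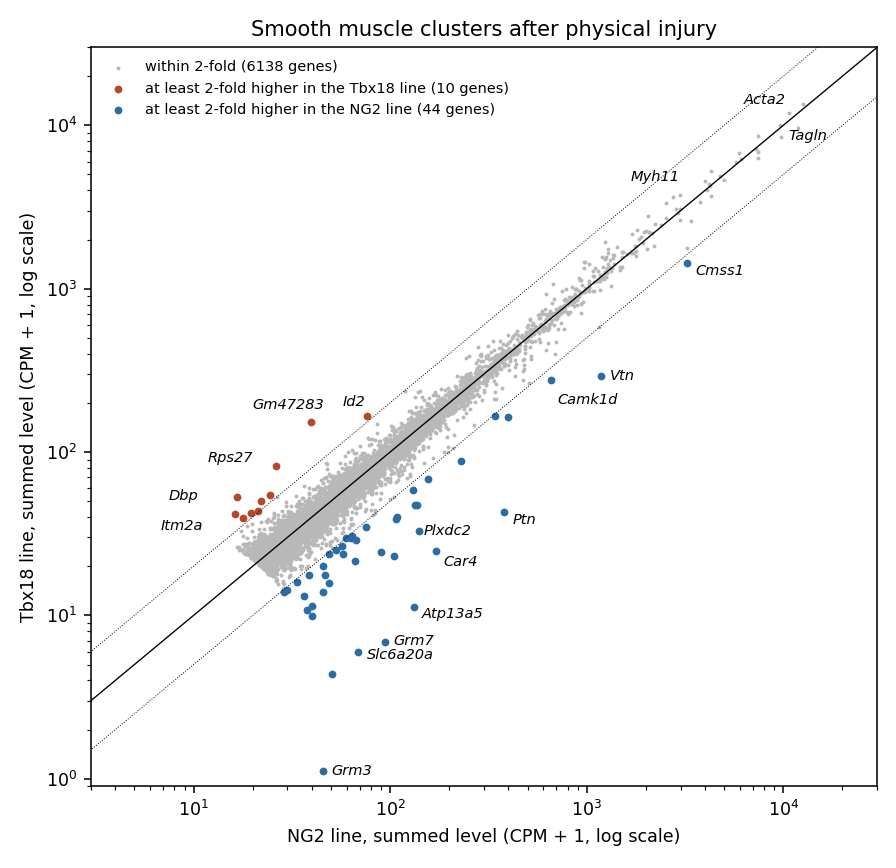
Summed level of the 6192 genes in the smooth muscle-like cells of the NG2 line (x) and the Tbx18 line (y), as CPM + 1 on log axes, with the line of equal levels solid and 2-fold differences dotted. The 44 genes called higher in the NG2 line (blue) reach further from the line than the 10 called higher in the Tbx18 line (red), and Acta2, Tagln and Myh11 lie on it.

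The contractile apparatus stood at close levels in both lines. None of its 25 measured genes (26 in the list) was called, where 0.161% and 0.711% of all genes tested were called each way. A list of this size would hold few calls in any case. Within 1.5-fold lay 24 of the 25 (96%), beside 96.5% of all genes tested. Their median ratio was 0.05, and the list took 6.63% of the UMIs in the Tbx18 line and 6.28% in the NG2 line. Acta2, the actin that defines muscle of the vessel wall, stood at 13573 CPM (limits 13496 to 13651) in the Tbx18 line and 12522 CPM (12382 to 12663) in the NG2 line, a ratio of 0.12. Tagln, an actin-binding protein, stood at 10105 and 9656 CPM, and Myh11, the smooth muscle myosin heavy chain, at 4579 and 4003 CPM. Cnn1, which marks the most contractile cells, stood at 237 and 233 CPM. The one member past 1.5-fold was Actg2, an actin of visceral muscle, at 25.03 and 43.7 CPM. The median of the list stayed between -0.05 and 0.32 under 14 other ways of choosing cells or scaling, and was below 0 in 2 of them. Some of these choose cells by the contractile share or by smooth muscle markers, which by itself brings the lines closer for this list. The lowest value, -0.05, came from equal cells in each bin of the contractile share, so such settings cannot test whether the list is level.

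The factors that drive this programme were level too. All 9 measured regulators lay within 1.5-fold, beside 96.5% of all genes tested. None was called, where 0.161% and 0.711% of all genes tested were called each way, so few calls could fall here. Myocd, the master coactivator of smooth muscle genes, stood at 273 and 259 CPM, a ratio of 0.07. Srf, its partner on DNA, stood at 24.0 and 19.8 CPM, and Klf4, a factor that can oppose it, at 989 and 881 CPM. SRF binds the CArG box, 10 bases long, with a consensus that is the same on both strands. A box is called perfect when all 6 inner bases are A or T. The bases before the start of 2 contractile genes and of Vtn, a called pericyte marker, are shown for this reason. Each line gives 180 bases up to the start of the RefSeq transcript in GRCm38.p6, 5′ to 3′ on the gene's own strand, with matches to the box in capitals where at most 1 of the 6 inner bases is G or C.

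Acta2 (chr19:34255374-34255553, minus strand): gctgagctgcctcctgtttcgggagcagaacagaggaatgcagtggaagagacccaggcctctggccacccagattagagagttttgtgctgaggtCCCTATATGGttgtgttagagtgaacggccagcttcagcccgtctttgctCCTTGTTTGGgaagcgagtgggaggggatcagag

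Myl9 (chr2:156775284-156775463, plus strand): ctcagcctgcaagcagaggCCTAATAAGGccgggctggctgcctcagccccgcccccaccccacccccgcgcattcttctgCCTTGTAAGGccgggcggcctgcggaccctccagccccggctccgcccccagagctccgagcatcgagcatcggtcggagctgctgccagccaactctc

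Vtn (chr11:78498940-78499119, plus strand): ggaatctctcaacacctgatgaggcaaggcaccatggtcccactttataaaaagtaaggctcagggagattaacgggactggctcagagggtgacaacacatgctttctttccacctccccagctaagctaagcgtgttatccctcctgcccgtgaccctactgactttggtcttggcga

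Acta2 held 2 such matches, 84 and 34 bases before its start, each with 1 inner G or C. Myl9, a myosin light chain at 6793 and 5934 CPM, held a perfect box 161 bases before its start and a match with 1 inner G or C at 99 bases. Within 250 bases before the start, 4 of the 22 contractile genes with a promoter in the table (18.2%) held a match of either kind, against 8.65% of all 27025 promoters, and a perfect box stood in 1 of the 22 against 1.40% of all. None of 9 pericyte markers held a match of either kind, and at the share over all promoters few would. Immediate early genes held a match in 4 of 24 (16.7%). Of 33 genes called higher in the NG2 line with a promoter, 1 did: Lama2, with a perfect box 39 bases before its start. A match is a description of letters in this window, and nothing about binding was measured.

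Genes known from pericytes were lower in the Tbx18 line. Of the 12 pericyte markers, 9 had a mean of at least 20 CPM, and all 12 stood lower in the Tbx18 line. Of the 9, 5 were called, all lower there, beside 0.711% of all genes tested. The list summed to 3090 CPM in the Tbx18 line and 6204 CPM in the NG2 line, with a median ratio of -1.02 beside -0.02 over all genes. Vtn, which encodes the matrix protein vitronectin, stood at 292 CPM (limits 280 to 303) in the Tbx18 line and 1187 CPM (1144 to 1231) in the NG2 line, 4.07-fold apart. Atp13a5, a transport ATPase typical of brain pericytes, stood at 10.3 CPM (8.28 to 12.7) and 131 CPM (117 to 146). Slc6a20a, an amino acid transporter, stood at 4.98 and 68.0 CPM, Ifitm1 at 22.8 and 56.8 CPM and Higd1b at 166 and 339 CPM.

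The other members of the list were lower by less, or rested on few counts. Rgs5, a brake on G protein signals found in all mural cells, stood at 1778 and 3250 CPM, a ratio of -0.87. Ndufa4l2 stood at 275 and 473 CPM, Pdgfrb, the receptor by which mural cells are recruited, at 233 and 298 CPM, and Cspg4 at 305 and 348 CPM. Kcnj8 and Abcc9, the pore and the regulatory subunit of the potassium channel that marks pericytes, were below the level needed for a call. Kcnj8 had 8 counts in the Tbx18 line and 49 in the NG2 line, a ratio of 21.8 without an added CPM (limits 10.2 to 53.2), and Abcc9 had 2 and 64 counts. In the NG2 line 77.6% and 90.6% of these counts lay in 12 cells.

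Others among the lowest ratios lay outside the list. Grm3, a glutamate receptor, had 1 count in the Tbx18 line and 108 in the NG2 line, a ratio of 384 without an added CPM with limits of 67.4 to 15298. Its counts in the NG2 line were uneven, with 89.8% of them in the 12 cells of the top 5%. Grm7, another glutamate receptor, stood at 5.91 and 93.1 CPM. Ptn, which encodes the growth factor pleiotrophin, stood at 41.8 CPM (37.6 to 46.4) and 381 CPM (356 to 406), 9.10-fold apart. Car4, a carbonic anhydrase on the cell surface, stood at 23.6 and 169 CPM, Plxdc2 at 31.8 and 139 CPM and Lin7a at 22.3 and 103 CPM. In the NG2 line the top 12 cells held 59.1% of the Ptn, 74.3% of the Grm7 and 60.8% of the Plxdc2 counts. For Car4 and Lin7a it was 41.8% and 41.0%. Up to 148 Ptn UMIs lay in 1 cell, and the Poisson limits do not cover such spread. Grm3, Grm7 and Lin7a were also among the 10 genes that stood out most in cluster 2 of the Tbx18 library, behind Abcc9, Kcnj8 and Atp13a5.

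Pericyte RNA was also higher in the NG2 library outside the muscle, among cells with endothelial markers. Cluster 5 of the NG2 library and cluster 0 of the Tbx18 library carry endothelial markers at 27733 and 31350 CPM. The pericyte markers summed there to 3990 CPM in the NG2 and 395 CPM in the Tbx18 library. Over all cells outside the smooth muscle-like cluster they summed to 11450 and 2011 CPM, but those cells include the pericyte clusters of each library. In cluster 5 Vtn stood at 1343 CPM, Atp13a5 at 176 CPM and Slc6a20a at 99.4 CPM, each above its level in the NG2 muscle, while Rgs5 at 1511 CPM and Higd1b at 184 CPM were below theirs.

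The shares of cells with a UMI, after thinning each cell to 4000 UMIs, were compared in the same way. Thinning left out 21 Tbx18 and 19 NG2 muscle cells, and clusters 0 and 5 had median depths of 6701.5 and 7522.5 UMIs before it. For the 6 genes given first, the share in NG2 muscle did not stand above that of cluster 5 beyond the limits. For Atp13a5 it was 17.9% (limits 13.1% to 23.6%) in NG2 muscle and 15.4% (11.9% to 19.5%) in cluster 5, and for Slc6a20a 17.04% and 13.3%. Kcnj8 stood at 6.73% and 14.1%, Abcc9 at 6.73% and 15.96%, Grm3 at 5.38% and 10.1% and Plxdc2 at 23.3% and 23.4%. The shares of these 6 genes are below, or within the limits of, those in cluster 5. They do not set NG2 muscle apart from cluster 5, and whether the counts in muscle are background was not tested. In the Tbx18 library Atp13a5 (3.35% against 1.34%) and Plxdc2 (12.9% against 8.02%) stood above cluster 0 beyond the limits. Slc6a20a, at 2.36% and 0.985%, had limits that overlap, and Kcnj8, Abcc9 and Grm3 were lower in muscle. Atp13a5 counts were uneven, with 59.9% in 12 cells of NG2 muscle and up to 40 UMIs in 1 cell, and 57.8% in 20 cells of cluster 5. For Vtn the share was 57.0% (50.2% to 63.5%) in NG2 muscle and 38.0% (33.1% to 43.2%) in cluster 5, and in the Tbx18 library 39.0% in muscle and 7.45% in cluster 0. Higd1b, at 46.6% and 27.1%, Lin7a, at 27.8% and 8.78%, and Casq2, at 30.5% and 7.98%, were likewise higher in NG2 muscle than in cluster 5. Ptn stood at 29.1% in NG2 muscle and 92.0% in cluster 5, and Car4 at 20.6% and 66.2%. In cluster 0 of the Tbx18 library Ptn and Car4 stood at 91.4% and 66.2%. For Grm7 the shares were 15.7% (11.2% to 21.1%) in NG2 muscle and 9.31% (6.57% to 12.7%) in cluster 5, with limits that overlap. How much free RNA adds to the levels in muscle was not tested.

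The spread over single cells differed as well. The pericyte markers took at least 1% of the UMIs in 47 Tbx18 cells, 5.68% (limits 4.21% to 7.49%), and in 67 NG2 cells, 27.7% (22.1% to 33.8%). The median share was 0.20% in the Tbx18 line and 0.35% in the NG2 line. The contractile share had a median of 6.65% against 6.14% and a 5th percentile of 3.34% against 1.95%, so the NG2 set reached lower. A contractile share under 4% was found in 10.6% of the Tbx18 cells (88 cells) and 24.8% of the NG2 cells (60 cells), while 40.9% and 27.3% lay between 6% and 8%. These are ranges of a continuous share, not cell types.

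**Figure D2:**
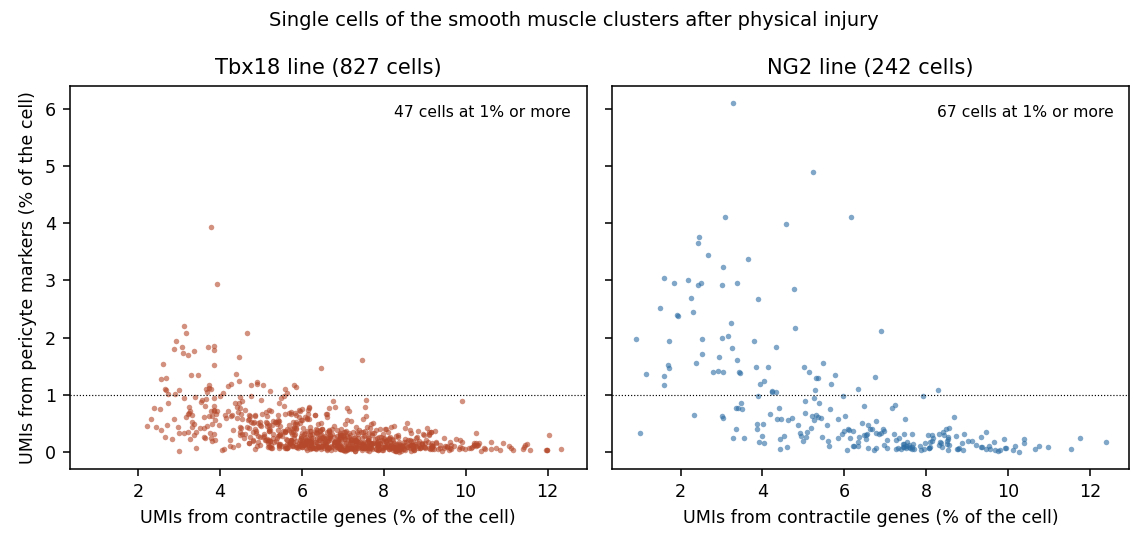
Each point is 1 smooth muscle-like cell, with the percent of its UMIs from the contractile genes (x) and from the pericyte markers (y), for the Tbx18 line (left) and the NG2 line (right). Cells at 1% or more of pericyte markers (dotted line) number 47 of 827 and 67 of 242, and most have a low contractile share.

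Within ranges of the contractile share, the ratios of Vtn, Atp13a5 and Ptn were widest where that share was lowest, but that of the summed markers was not. Cells under 4% reached down to a contractile share of 2.23% in the Tbx18 line and 0.907% in the NG2 line. Their median depths were 9143 and 7188 UMIs, and how far this adds to the ratios there was not tested. Among cells under 4%, Vtn stood at 734 CPM in the Tbx18 line and 3951 CPM in the NG2 line, a ratio of -2.43. From 4% to 6% it stood at 357 and 1124 CPM, from 6% to 8% at 240 and 370 CPM, and at 8% or more at 124 and 205 CPM, a ratio of -0.72. Atp13a5 went from 27.1 and 542 CPM under 4% to 1.58 and 7.93 CPM at 8% or more, the last from 3 and 5 counts. The summed pericyte markers stood at 8214 and 15753 CPM under 4%, 4062 and 7840 CPM from 4% to 6%, 2223 and 2725 CPM from 6% to 8%, and 1392 and 1791 CPM at 8% or more. Rgs5 was at a ratio of -0.45 under 4% and -0.97 from 4% to 6%. Ptn stood at 138 and 1326.5 CPM under 4% and at 25.035 and 32.6 CPM from 6% to 8%, and at 8% or more it was again apart at 19.5 and 66.6 CPM, a ratio of -1.73.

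Some other called genes varied less with the contractile share. Camk1d, a calcium-dependent kinase, stood between 245 and 283 CPM in the 4 bins of the Tbx18 line and between 643 and 670 CPM in those of the NG2 line. Cmss1 stood between 1332 and 1625 CPM in the Tbx18 bins and between 3031 and 3369 CPM in the NG2 bins. Gm47283 was higher in the Tbx18 line in all 4 bins, but fell there from 195 CPM under 4% to 115 CPM at 8% or more. Vtn, Atp13a5 and Ptn also kept 1 side in all 4 bins. Of the 44 genes called higher in the NG2 line, 37 were past 2-fold among cells under 4%, 28 from 4% to 6%, 11 from 6% to 8% and 16 at 8% or more. Over all genes of at least 20 CPM in a bin, 297 of 6630, 78 of 6256, 32 of 6006 and 42 of 5871 were past 2-fold that way. The 44 were called from the sum of these same cells, so an excess over all genes is built in and tests nothing. Finer bins, 1% wide, were used to match the 2 lines, here and wherever equal bins are named below. With equal numbers of cells from each of these, 229 of each line, Vtn stood at a ratio of -1.40 and Atp13a5 at -2.67. Then 30 genes were called higher in the NG2 line, and 24 of these were among the 44. With cells of at least 4% alone, an alternative chosen after seeing the data, 15 genes were called higher in the NG2 line and Vtn stood at -1.16.

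**Figure D3:**
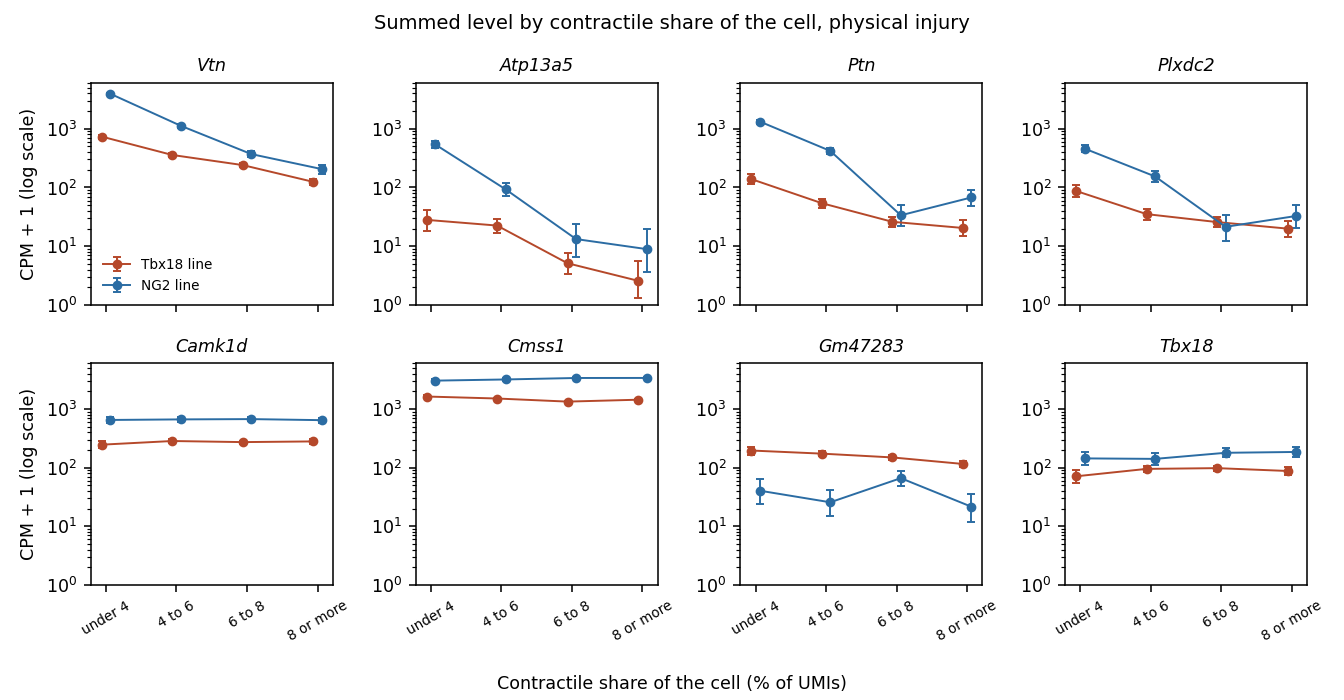
Summed level of 8 genes (CPM + 1, log scale) in cells grouped by contractile share, for the Tbx18 line (red) and the NG2 line (blue), with bars for exact Poisson limits. Vtn, Atp13a5, Ptn and Plxdc2 are highest under 4%, where the lines are furthest apart. Camk1d, Cmss1, Gm47283 and Tbx18 keep 1 side in all 4 bins, as do Vtn, Atp13a5 and Ptn. Gm47283 falls with the contractile share in the Tbx18 line. Cells under 4% reach to lower contractile shares in the NG2 line.

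Set beside the other 4 libraries, the physically injured Tbx18 cells were the ones that stood apart for the genes given next. Vtn lay between 1187 and 1710 CPM in the smooth muscle-like clusters of the 5 other libraries and at 292 CPM here. Ptn lay between 349 and 539 CPM in those 5 and at 41.8 CPM here, Car4 between 160.5 and 253 CPM and at 23.6 CPM, and Rgs5 between 3250 and 5448 CPM and at 1778 CPM. The summed pericyte markers were 8757 CPM in naive and 9079 CPM in ischemic Tbx18 cells, and 8220, 6204 and 8174 CPM in naive, physically injured and ischemic NG2 cells. Cells with at least 1% of pericyte markers made up 49.2% of the 63 naive and 57.4% of the 47 ischemic Tbx18 cells, against 37.0% and 31.8% in the NG2 line. The contractile list was highest in the physically injured cells of each line, and its low value was 43540 CPM in naive Tbx18 cells. Other called genes differed in this. Gm47283 and Rps27 were lowest in the physically injured NG2 cells, at 38.7 and 25.1 CPM. In the physically injured Tbx18 cells Gm47283, Rps27, Dbp and Cmss1, at 152, 81.5, 52.3 and 1427 CPM, lay inside the range of the other libraries.

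**Figure D4:**
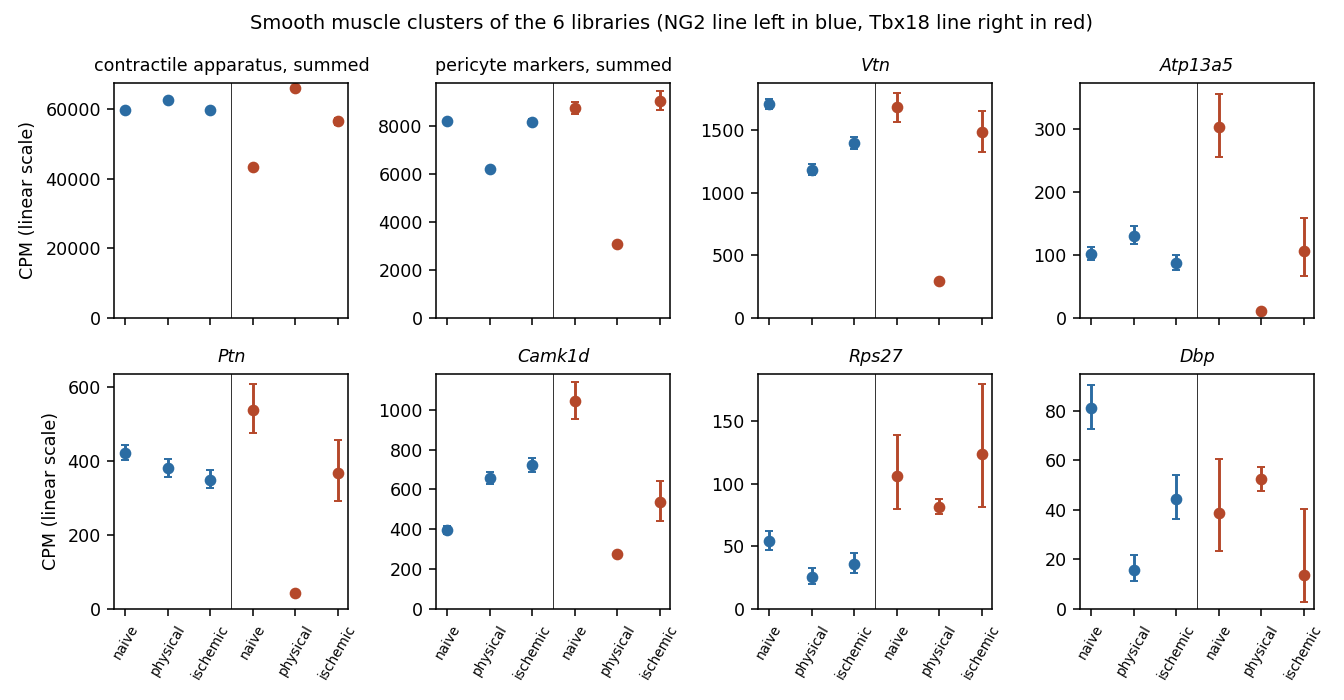
Level in CPM (linear axis from 0) in the smooth muscle-like cluster of each of the 6 libraries, NG2 line left in blue and Tbx18 line right in red, with bars for exact Poisson limits. The Tbx18 cells after physical injury are the lowest of 6 for the summed pericyte markers (3090 CPM), Vtn, Atp13a5, Ptn and Camk1d, and the highest for the summed contractile genes (66254 CPM).

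The cluster also took an unusual share of that library. It held 21.5% (limits 20.2% to 22.8%) of the physically injured Tbx18 cells and 9.44% (8.34% to 10.6%) of the NG2 ones, against 9.18% and 11.7% in naive and 2.30% and 7.72% in ischemic libraries. Clusters counted as mural were 1, 2 and 4 in the Tbx18 line and 0, 1, 2, 3, 8 and 10 in the NG2 line. Of these alone it held 51.4% in the physically injured Tbx18 library and 12.7% to 17.0% in the other 5. Cluster 4 of the Tbx18 line had a median of 0% pericyte markers in its 349 physically injured and 143 ischemic cells, against 1.77% in naive ones. Its smooth muscle markers had medians of 0.03%, 0.11% and 1.01%, so the Tbx18 shares of mural clusters depend on counting it. The shares depend on what the sort let in and on clusters drawn separately for each line. Counted without clusters, cells with at least 1% of smooth muscle markers were 25.4% of the physically injured Tbx18 cells, 84.7% of them in cluster 1 and 90 of them in cluster 2, and 9.40% of the NG2 cells, 94.6% of them in cluster 3. In the naive Tbx18 library they were 23.9%, with 31.1% of them in cluster 1. Taking all such cells of both injured libraries, 46 genes were called higher in the NG2 line, 36 of them among the 44, with Vtn at -1.84 and Ptn at -1.90.

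Among genes of tone, 4 were called, all lower in the Tbx18 line, where 0.711% of all 6192 genes tested were called that way. Of 19 measured ion channel and calcium genes, 1 was called: Casq2, a calcium store protein, at 46.6 and 136 CPM. Kcna5, Cacna1c, the L-type calcium channel, and Pln, the inhibitor of the calcium pump, were within 1.5-fold, at ratios of 0.51, -0.09 and 0.30. Ano1, a chloride channel, stood at 210 and 345 CPM. Of 10 vasoactive receptors, 1 was called, the thrombin receptor F2r at 12.9 and 28.0 CPM, and the list's median was -0.25. Ednra, the endothelin receptor of muscle, stood at 226 and 224 CPM. Of 14 cyclic nucleotide genes, the phosphodiesterases Pde4d at 162 and 395 CPM and Pde8b at 57.7 and 129 CPM were called, while Prkg1, the kinase that nitric oxide acts through, stood at 2202 and 2140 CPM. With cells of at least 4% contractile UMIs all 4 calls were lost, at -0.84 for Casq2, -0.51 for F2r, -0.56 for Pde8b and -0.87 for Pde4d. With equal cells in each bin those of F2r, at -0.79, Pde8b, at -0.67, and Pde4d, at -0.80, were lost. None of 15 genes of RGS proteins and small GTPase signalling was called.

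Matrix genes held 3 of the called ones. Of 33 measured matrix genes, Vtn and the laminin chains Lama2 (46.1 and 133 CPM) and Lamc3 (29.8 and 63.0 CPM) were called, all higher in the NG2 line. Over all genes tested 0.711% were called that way, and the list's median was -0.22. The call of Lama2 was lost at -0.81 with cells of at least 4% contractile UMIs, and that of Lamc3 at -0.53 with equal cells in each bin of the contractile share. Sparcl1 and Mgp, the most abundant members, stood at 4919 and 4757 CPM and at 1830 and 2188 CPM. None of 19 genes of phenotypic switching was called, with a median of 0.01 and Vim at 2901 CPM in both lines. Of 17 PDGF and growth factor genes none was called. Among the widest were Igfbp5, which binds insulin-like growth factors, at a ratio of 0.87, Ntf3, a neurotrophin, at 84.6 and 46.1 CPM, and Ccn2, a matrix-bound growth regulator, at 106 and 196 CPM. Of 2 measured division genes, Pcna and Hmgb2, neither differed by more than 0.05, and Mki67 had under 1 CPM in both lines.

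Immediate early genes leaned one way together. All 27 measured members stood higher in the Tbx18 line, beside 2846 of all 6192 genes tested, and the median ratio was 0.29. None of the 27 was called, where 0.161% of all genes tested were called that way. The list took 4.69% of the UMIs in the Tbx18 line and 3.83% in the NG2 line. It was also higher in the Tbx18 library outside the muscle, at 42668 CPM in cluster 0 and 38083 CPM in cluster 5 of the NG2 library. Over all cells outside the smooth muscle-like cluster it stood at 32565 and 13036 CPM, from unlike mixtures of cells. Fos stood at 8559 and 7413 CPM, Egr1 at 3364 and 2529 CPM, Atf3 at 2785 and 2044 CPM and Gadd45g, the widest, at 376 and 243 CPM. The median stayed above 0 in all 14 alternatives, between 0.14 and 0.40. Over the 6 libraries the list ran from 23047 CPM in ischemic to 48882 CPM in naive Tbx18 cells, so the physical injury values lie inside the range of uninjured and injured libraries.

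Signal and stress lists held 1 called gene, higher in the Tbx18 line, where 0.161% of all genes tested were called that way. None of 10 Notch genes was called, with Hes1, a target of the pathway, at 927 and 621 CPM and Notch3 at 568 and 618 CPM. Of 21 TGF-beta and BMP genes, 1 was called, Id2, a BMP target, at 165 CPM (limits 156 to 174) in the Tbx18 line and 75.4 CPM (64.8 to 87.1) in the NG2 line. Its relatives Id1 and Id3 stood at ratios of 0.47 and 0.31. With equal cells in each bin of the contractile share the call of Id2 was lost, at 0.97. None of 15 heat shock, 18 inflammatory and interferon, 16 hypoxia and glycolysis or 21 mural transcription factor genes was called, with list medians of -0.04, 0.06, 0.05 and 0.01. Hspa1a stood at 422 and 621 CPM and Irf1, a factor of the interferon response, at 439 and 278 CPM.

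The drivers themselves were measured. Tbx18, a T-box factor of mural cells, stood at 91.5 CPM (limits 85.3 to 98.2) in the Tbx18 line and 163 CPM (148 to 180) in the NG2 line, a ratio of -0.83. It was lower in the Tbx18 line in all 4 bins of the contractile share, from 70.2 and 143 CPM to 86.8 and 184 CPM. In naive cells Tbx18 stood at 98.0 and 146 CPM, and in ischemic cells at 156 and 126 CPM. The Tbx18 line carries its Cre at this locus, and the part of the allele in the count was not tested. Cspg4 stood at a ratio of -0.19.

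The 10 genes called higher in the Tbx18 line belonged to no single list. Gm47283, which the annotation places on chromosome Y, stood at 152 CPM (limits 143 to 160) in the Tbx18 line and 38.7 CPM (31.3 to 47.4) in the NG2 line. Dbp, a clock-controlled factor, stood at 52.3 CPM (47.6 to 57.3) and 15.6 CPM (11.1 to 21.5), and Rps27, a ribosomal protein gene, at 81.5 CPM (75.6 to 87.7) and 25.1 CPM (19.2 to 32.3). Cwc22, a splicing factor, stood at 49.5 and 21.0 CPM. Rps27 was the 1 called of 77 ribosomal protein genes, whose median ratio was -0.00, beside 0.161% of all genes tested called that way. None of the 13 mitochondrially encoded genes was called, with a median of -0.11. Itm2a and Ly6c1, both endothelial markers, stood at 40.8 and 15.2 CPM and at 38.2 and 16.9 CPM, and 87.2% and 91.8% of their counts in the Tbx18 line came from the top 5% of cells (41 cells).

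The same genes were followed in other clusters of the 2 physically injured libraries. Besides clusters 0 and 5, with their endothelial markers, these were cluster 2 of the Tbx18 and cluster 1 of the NG2 library, which carry pericyte markers at 22376 and 44674 CPM. The clusters are named by number because markers of their own class did not lead their top 10 genes in every case. Clusters 2 and 1 are not a like pair. Other NG2 clusters with pericyte markers, 0, 2, 8 and 10, were left out. At least 1% smooth muscle markers were found in 90 of 433 cells of cluster 2 and 2 of 318 of cluster 1. Immediate early genes summed to 30577 and 4459 CPM in clusters 2 and 1. Of the 34 NG2-side genes measured in clusters 0 and 5, 17 were past 2-fold the same way, beside 105 of all 6734 genes there (1.56%), and of 41 measured in clusters 2 and 1 it was 13, beside 3.73% of all. On the Tbx18 side it was 3 of 8 beside 0.0743% of all in clusters 0 and 5, and 6 of 8 beside 8.10% in clusters 2 and 1. In clusters 0 and 5 the ratio was 2.10 for Gm47283, 1.83 for Dbp, 1.30 for Rps27 and -1.11 for Cmss1. Vtn stood there at 38.8 CPM in the Tbx18 library, a ratio of -5.08. In clusters 2 and 1 Vtn stood at 7714 and 22918 CPM, Ptn at 5130 and 13869 CPM and Atp13a5 at 1588 and 2174 CPM.

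Few of the differences were present in the other conditions. In naive smooth muscle-like cells, 1 of 42 measured NG2-side genes was past 2-fold the same way beside 1.77% of all. The opposite way it was 9 of the 42, beside 4.03% of all. In ischemic cells 1 of 41 was past 2-fold the same way beside 3.62%, and 4 the opposite way beside 6.14% of all. Tbx18-side genes past 2-fold the same way were 2 of 8 beside 4.03% in naive and 4 of 9 beside 6.14% in ischemic cells. Rps27, Rpl35 and Cwc22 were higher in each of the 3 Tbx18 libraries than in any NG2 library, Rps27 at 81.5 to 124 CPM against 25.1 to 54.0 CPM. The naive and ischemic Tbx18 sets hold only 490034 and 218420 UMIs, so limits are wide there.

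**Figure D5:**
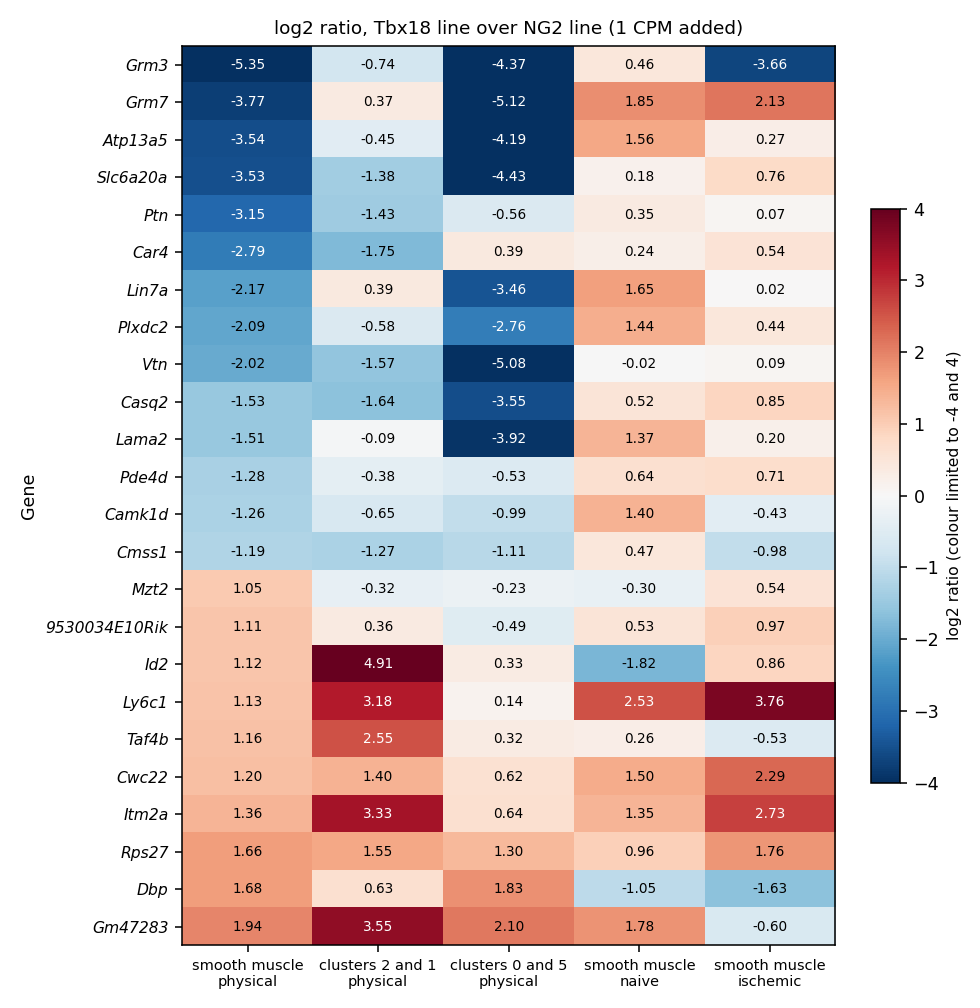
Log2 ratio of the Tbx18 over the NG2 line (1 CPM added) for called genes in the smooth muscle-like cells after physical injury, in 2 other pairs of clusters of the same libraries, and in naive and ischemic smooth muscle-like cells. Rps27 and Cwc22 are above 0 in all 5 columns, while Atp13a5, Plxdc2, Lin7a and Camk1d are below 0 in smooth muscle-like cells after physical injury and above 0 in naive ones.

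Markers of other cells were low. Mog, Mbp and Mag, genes of myelin-forming oligodendrocytes, stood at 0.12, 0.23 and 0 CPM in the Tbx18 cells and at 5.35, 6.18 and 3.71 CPM in the NG2 cells. Endothelial markers summed to 559 CPM in the Tbx18 and 474 CPM in the NG2 cells, with all 16 detected in both and 8 Tbx18 cells and 1 NG2 cell at 1% or more. Fibroblast markers summed to 278 and 325 CPM and microglia and macrophage markers to 39.2 and 10.3 CPM, with 6 of those 12 at 0 in the NG2 cells. Oligodendrocyte precursor markers summed to 0.58 and 13.2 CPM, astrocyte markers to 11.01 and 13.2 CPM, neuron markers to 2.55 and 6.59 CPM and red blood cell markers to 13.4 and 11.9 CPM. Leaving out every cell with a UMI of 7 marker genes of other cell types, such as Cldn5, C1qa and Mog, kept 578 Tbx18 and 122 NG2 cells. Vtn then stood at -1.77, Atp13a5 at -3.22 and Gm47283 at 2.20, and 30 of the 44 NG2-side genes were called again.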

How the data were processed

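The authors deposited UMI counts for each cell, aligned to GRCm38 (mm10). The submitters' processing notes name Cell Ranger 7.0.0, while the study's methods name a range of versions that ends there. Which version each library had is not stated in the sources used here. Whether it bears on ratios between libraries was not tested. A cell's percent of mitochondrial transcripts, deposited as the authors had it from Seurat, served here as a filter in 1 alternative. Per the study's methods, cells needed at least 200 genes and at most 12% mitochondrial transcripts, genes had to occur in 3 cells, outliers beyond 2 SD were dropped, Gm42418 and AY036118 were removed, and clusters were made for each line separately after integration over conditions. No doublet step is stated in the sources used here, and none was run. Every deposited cell of the chosen clusters was kept, and 0 per-sample columns were left unused.

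Counts were summed per cluster and library and scaled to CPM on all UMIs in the table. Genes had to stand in both tables (20347) with a mean of at least 20 CPM, and a 2-fold difference was the call. The 10 highest and 10 lowest ratios were named, leaving out mitochondrial, sex-linked and hemoglobin genes, and in each list up to 4 members with the widest ratio and up to 4 of the highest level. Abcc9, Kcnj8, Mog, Mbp, Mag, Camk1d, Cmss1, Rpl35 and the clock genes were named after their values were seen, as were genes that filled out a list. The cells and the gene lists were chosen with earlier results of these data known. Ratio limits come from the conditional binomial distribution of the counts. Thinning drew UMIs without replacement from each cell. The calculation was tested on simulated data. Python 3.11.15, numpy 2.4.6, pandas 2.3.3, scipy 1.17.1, matplotlib 3.10.9, R 4.3.3 and edgeR 4.0.16 (TMM factors, in an alternative) were used. Some genes that the rule names are not reported here. Promoter sequences are from RefSeq for GRCm38.p6.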

Additional observations from a re-analysis of the deposited data

Results flagged for a closer look

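In the called genes given here the ratio of the Tbx18 over the NG2 line was past 2-fold in the opposite direction in naive smooth muscle-like cells. Each side is 1 library in each condition, so the difference was not tested. Of the called genes measured in naive cells, 9 of 42 NG2-side and 2 of 8 Tbx18-side genes were past 2-fold in the opposite direction. Over all genes measured there, 4.03% were past 2-fold higher in the Tbx18 line and 1.77% higher in the NG2 line. Genes lower in the Tbx18 line after physical injury stood higher there in naive cells, at log2 ratios of 1.40 for Camk1d, 1.44 for Plxdc2, 1.60 for Galnt17, 1.85 for Grm7, 1.37 for Lama2, 1.65 for Lin7a, 1.34 for Pde8b and 1.56 for Atp13a5. Dbp and Id2, higher in the Tbx18 line after physical injury, stood at -1.05 and -1.82 in naive cells, from 19 and 14 counts in the Tbx18 line.

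Grm7 stood at 277 CPM in the 63 naive Tbx18 cells, 5.91 CPM after physical injury and 174 CPM in the 47 ischemic cells, against 76.4, 93.1 and 38.9 CPM in the NG2 line. Atp13a5 stood at 302, 10.3 and 105 CPM against 102, 131 and 87.4 CPM. Dbp stood at 38.8, 52.3 and 13.7 CPM against 81.3, 15.6 and 44.6 CPM.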

How the results depend on the processing

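No paired analysis was possible because each group is 1 library. The 10 genes called higher in the Tbx18 line became 3 with a mean of at least 50 CPM, 237 with at least 10 counts in place of a CPM minimum, 85 with cells thinned to 2000 UMIs, 31 with cells of at most 5% mitochondrial transcripts and 19 without cells holding a UMI of 7 genes of other cell types. The 44 called higher in the NG2 line became 19, 289, 143 and 189 under the first 4 of these, and 74 with the mean of per-cell CPM. Under alternatives added after seeing the data, the 10 became 23 with cells of any cluster at 1% smooth muscle markers and 57 with cells holding a Y-linked and no Xist UMI, and the 44 became 15 with cells of at least 4% contractile UMIs and 83 with the Y-linked choice, which keeps 47 NG2 cells. That last choice turned 2 ratios, Arhgdib to 0.24 and Ccnd1 to 0.65. TMM factors, another UMI scaling, a pseudocount of 5 CPM, equal bins and cells with Xist and no Y-linked UMI kept both counts within 1.5-fold. Of the 54 called genes, 24 stayed past 2-fold with cells of at least 4% contractile UMIs, 32 with equal bins, 35 with the Y-linked choice and 41 to 54 under the settings that keep all cells and change the scaling, the pseudocount or the averaging. Leaving out cells with genes of other cell types kept 39. The median ratio of all genes lay between -0.06 and 0.05 in every setting.

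Over mural clusters alone, the smooth muscle-like cluster held 51.4% of physically injured, 14.1% of naive and 17.0% of ischemic Tbx18 cells. In the NG2 line it was 16.7%, 12.7% and 16.8%. The Tbx18 values count cluster 4 as mural, which was low in mural markers after injury. By marker share without clusters it was 25.4%, 23.9% and 3.76% in the Tbx18 line. The genes followed in other cells were counted again under alternatives also added after seeing the data. With a mean of at least 50 CPM, 1 of 4 Tbx18-side and 0 of 33 NG2-side genes were past 2-fold the same way in naive cells. The main setting gave 2 of 8 and 1 of 42. In clusters 0 and 5 it was 9 of 24 NG2-side genes, beside 17 of 34 in the main setting. In naive cells clustered over both lines it was 0 of 22 NG2-side genes, and 1 of 42 with a pseudocount of 5 CPM. The cause of these changes was not tested. Counts of few cells, 90 NG2 cells in the mitochondrial choice and 122 in the choice by other cell types, limit what low genes can show.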

Other observations

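Cells of both sexes are in each pool, in unlike shares. Xist and none of 4 Y-linked genes had a UMI in 53.1% (limits 49.6% to 56.5%) of the Tbx18 and 66.9% (60.6% to 72.8%) of the NG2 smooth muscle-like cells, and a Y-linked gene without Xist in 33.5% (30.3% to 36.8%) and 19.4% (14.6% to 24.98%). Xist stood at a ratio of -0.61, Ddx3y at 0.49, Uty at 0.67 and Eif2s3y at -0.16. Gm47283, placed on chromosome Y, was as high in Tbx18 cells with Xist alone (161 CPM) as in those with Y-linked UMIs alone (155 CPM), and stood at 30.7 and 72.4 CPM in the NG2 line.

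Dbp stood at 29.8 CPM (limits 24.99 to 35.2) in Tbx18 cells with Xist alone and at 75.5 CPM (66.1 to 85.9) in those with Y-linked UMIs alone, against 16.2 and 17.1 CPM in the NG2 line. Other genes of the circadian clock were chosen after Dbp was seen, and only some are given here. Those given lay on both sides of 0, and whether they shift together was not tested. Tef stood at a ratio of 0.66, Nr1d2 at 0.60, Hlf at 0.57, Nr1d1 at 0.39 and Per1 at 0.20, while Arntl stood at -0.50 and Npas2 at -0.82.

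The genes called higher in the NG2 line were long. Their median span in the genome was 95.3 kb over the 43 with a known span, against 28.7 kb over all genes tested and 10.6 kb over the 10 called higher in the Tbx18 line.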
